A study of Mus musculus with 384 samples.

Results

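The genes described are 9 stimulus-induced transcription factor genes of the mouse: the Fos-type members of the AP-1 family (Fos, Fosb, Fosl1 and Fosl2), its Jun-type members (Jun, Junb and Jund), the related gene Atf3 and the zinc finger gene Egr1. They were chosen by symbol, and each was found once among the 46517 genes of the table. Their RNA was read cell by cell, by Smart-seq2, in stem cells of the hair follicle taken from back skin. The dKO mice carried NFIBfl/fl and NFIXfl/fl together with Sox9-CreER and R26-YFPfl/fl. The cKO mice carried NFIBfl/+ and NFIXfl/fl, again with Sox9-CreER and R26-YFPfl/fl. Both groups thus shared the recombinase driven by Sox9, the YFP reporter and floxed alleles of both Nfix copies, and differed in the second Nfib allele. No group without floxed alleles is part of these data, and all animals were labelled male and of postnatal day 70. The sort took live (DAPI-negative) cells with integrin α6 and YFP, in a gate with Sca-1 and a gate without it, a surface protein encoded by Ly6a that is high on upper follicle and epidermal cells and low on bulge stem cells.

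AP-1 is a dimer of basic leucine zipper proteins. Jun proteins pair with each other or with Fos proteins, whereas Fos proteins need a Jun partner, and the dimers bind a short palindromic DNA site. Fos, Fosb, Jun, Junb, Atf3 and Egr1 belong to the immediate early genes, which cells transcribe within minutes of growth factor, wounding or stress signals without new protein synthesis, and whose RNA is short-lived. Dissociating a tissue is also known to induce them, and its part in these values was not tested. Fosl2 and Jund are known for a steadier expression in epithelia, and Fosl1 for induction in wounded and transformed keratinocytes.

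The promoters of Fos, Fosb, Jun, Junb and Atf3, whose RNA rose and fell together from cell to cell, and of Fosl2, whose RNA did so least among the abundant members, are shown as the 250 bases before the RefSeq start on GRCm38.p6, read 5′ to 3′ on the gene's strand. The stretches are chr12:85473640-85473889 (plus strand) for Fos, chr7:19310046-19310295 (minus) for Fosb, chr5:32136222-32136471 (plus) for Fosl2, chr4:95052223-95052472 (minus) for Jun, chr8:84978749-84978998 (minus) for Junb and chr1:191183334-191183583 (minus) for Atf3. Capitals mark TGACG on either strand (the core of the cAMP response element), the 8-base form TGANNTCA, and TATAAA.
Fos: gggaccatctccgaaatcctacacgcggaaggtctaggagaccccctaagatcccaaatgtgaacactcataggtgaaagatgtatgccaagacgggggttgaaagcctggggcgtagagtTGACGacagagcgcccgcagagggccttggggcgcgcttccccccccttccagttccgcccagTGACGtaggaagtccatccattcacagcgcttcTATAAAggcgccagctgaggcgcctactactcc
Fosb: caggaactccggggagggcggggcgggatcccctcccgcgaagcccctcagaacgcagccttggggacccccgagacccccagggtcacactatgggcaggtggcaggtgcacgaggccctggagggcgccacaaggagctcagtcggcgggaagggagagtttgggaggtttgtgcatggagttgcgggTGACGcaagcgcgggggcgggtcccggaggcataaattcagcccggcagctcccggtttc
Fosl2: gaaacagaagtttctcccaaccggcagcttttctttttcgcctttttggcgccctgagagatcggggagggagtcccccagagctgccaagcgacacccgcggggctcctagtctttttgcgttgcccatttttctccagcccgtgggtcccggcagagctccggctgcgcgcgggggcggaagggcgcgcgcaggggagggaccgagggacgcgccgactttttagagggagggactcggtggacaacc
Jun: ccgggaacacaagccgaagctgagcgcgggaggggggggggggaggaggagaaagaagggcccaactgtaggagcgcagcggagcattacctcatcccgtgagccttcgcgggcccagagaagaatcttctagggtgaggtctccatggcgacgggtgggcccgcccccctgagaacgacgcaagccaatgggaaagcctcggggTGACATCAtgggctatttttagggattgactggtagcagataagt
Junb: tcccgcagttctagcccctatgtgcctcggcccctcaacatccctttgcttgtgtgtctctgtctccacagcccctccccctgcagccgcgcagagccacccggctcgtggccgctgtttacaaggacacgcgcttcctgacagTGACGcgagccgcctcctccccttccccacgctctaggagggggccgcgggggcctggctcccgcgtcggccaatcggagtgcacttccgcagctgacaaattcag
Atf3: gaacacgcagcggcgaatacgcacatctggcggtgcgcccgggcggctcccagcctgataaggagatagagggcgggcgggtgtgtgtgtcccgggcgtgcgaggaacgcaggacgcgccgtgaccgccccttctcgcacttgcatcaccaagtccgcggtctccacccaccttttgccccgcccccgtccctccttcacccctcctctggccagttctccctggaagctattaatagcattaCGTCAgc

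TGACG was found before the start of Fos, Fosb, Junb and Atf3, and in 17.8% of all 32851 promoter stretches of that length. The Jun stretch held TGACATCA at bases -45 to -38, a form of TGANNTCA, which was also found for Jund and in 11.9% of all stretches. TATAAA was found in the Fos stretch at bases -33 to -28 and in 12.4% of all. The Fosl2 stretch held none of the 3. The stretches of 7 members (Fos, Fosb, Fosl2, Jun, Junb, Jund and Atf3) were searched on both strands. For each gene the first listed RefSeq start was used, and other starts were not searched. The stretches of Fosl2 and Atf3 lie inside the gene bounds of GENCODE M21, and the Jund start differs from that annotation. No match was found for the AP-1 site TGANTCA (6.75% of all stretches) or the full element TGACGTCA (1.55%). Nor was a match found for the CArG box bound by serum response factor (1.47%) or for CCGGAA (12% of all). Fosl1 had no entry, and Egr1 and bases further from the start were not searched. GCGNGGGCG, the letters that Egr proteins bind, was found in the stretches of Fosb and Fosl2 and in 4.7% of all. A match is a description of the letters only.

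Of 384 cells, 378 showed 1000 or more genes at 1 TPM and were kept (TPM, transcripts scaled to the same total in each cell, is a length-corrected share of the RNA). In the Sca-1-negative gate there were 154 dKO cells on 2 plates and 183 cKO cells on 3 plates. In the Sca-1-positive gate there were 19 dKO cells, all on plate dKO 2, and 22 cKO cells, all on plate cKO 3. Because no animals are named in the labels, each genotype counts as 1 sample, no test was made, and plates are given apart. Against the label of male animals, plates dKO 1, cKO 1 and cKO 2 held Xist RNA (44.5 to 59.8 TPM), and plates dKO 2 and cKO 3 held Y-linked RNA in its place. Results are therefore also given within these kinds of plate. Nfix averaged 29.6 and 32.3 TPM on the dKO plates and 43.7 to 48.0 TPM on the cKO plates, and Nfib 58.4 and 90.4 TPM against 67.1 to 80.4 TPM, values that do not separate intact transcripts from transcripts without a floxed exon. Median genes per cell ran from 4770 to 5199 over plates and gates. Of the 378 cells of both gates, 368 were positive for at least 3 basal keratinocyte markers and 303 for at least 3 bulge markers. At least 3 upper follicle markers were positive in 123 cells, 3 of differentiated epidermis in 55 and 3 of cycling cells in 31. None was positive for 3 markers of immune cells, fibroblasts, melanocytes, endothelium, Schwann cells or Merkel cells.

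Fos, which encodes the founding AP-1 partner, was the most abundant of the 9 genes and varied from cell to cell more than almost any other gene. Over the Sca-1-negative cells it ran from 0 to 2062 TPM (median 305) on plate dKO 1 and from 0 to 1419 TPM (median 11.6) on plate dKO 2. On the cKO plates it ran from 0 to 2022 TPM (median 122), from 0 to 2517 TPM (median 561) and from 0 to 2141 TPM (median 37.5) on plates 1, 2 and 3. Every plate thus held cells with no listed Fos RNA beside cells with more than 1000 TPM, and the genotypes overlapped over nearly the whole range. Fos was listed at 0 in 20.4% and 39.3% of cells on the dKO plates, and in 38.0%, 31.9% and 40.0% of cells on the cKO plates. Cells between 1 and 100 TPM were fewer: 17.2% and 27.9% of dKO cells and 11.3%, 6.38% and 21.5% of cKO cells. The SD of log2(TPM + 1) within plates averaged 4.20 for Fos, against a median of 2.05 over the 7060 genes with a mean of 5 TPM or more (the measured genes), of which 3 had a higher SD.

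Another 5 of the 9 members shared this wide spread. The SD averaged 3.46 for Fosb, a close relative of Fos, 3.37 for Jun and 3.06 for Junb, the main Jun-type partners, 3.57 for Atf3, which encodes a stress-induced dimer partner, and 3.56 for Egr1. Each was higher than in at least 98.8% of the measured genes. The other 3 members were not spread in this way: Fosl2 had an SD of 2.03, Jund 1.88 and Fosl1 1.73, all at or below the median of the measured genes. These 3 were also the least abundant of the 9 (means of 37.6, 9.61 and 7.37 TPM). The SD on this scale depends on level, and SDs were not compared among genes of like level. Fosl2, the Fos-type gene with steady expression, had medians of 17.7 and 16.5 TPM on the dKO plates and of 19.7, 39.2 and 19.4 TPM on the cKO plates, and was listed at 0 in 7.04% to 13.1% of cells. Jund, the Jun-type gene known to restrain growth, had medians of 4.62 and 5.08 TPM on the dKO plates and 4.55, 9.65 and 3.49 TPM on the cKO plates. Fosl1 was listed at 0 in most cells: 80.6% and 90.2% on the dKO plates and 70.4%, 70.2% and 87.7% on the cKO plates.

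By mean level over the 5 plates, on the length-corrected TPM scale, Fos (431 TPM) stood first and Egr1 (192 TPM) second. Jun (135 TPM), Fosb (127 TPM), Atf3 (126 TPM) and Junb (98.1 TPM) followed, and these 4 lay closer to each other than the plates of any of them did. Fosl2 (37.6 TPM), Jund (9.61 TPM) and Fosl1 (7.37 TPM) came last. The value of Jund is uncertain, because an antisense gene, Gm11175 (7.94 TPM), overlaps it by 919 bases, and this library type does not mark strand. Junb shares 351 bases with the oppositely oriented and abundant Prdx2 (45.9 TPM, mean correlation with Junb -0.07), so that its value is uncertain too. Jun shares 689 bases with the antisense RNA Junos (0.996 TPM) and Fosl1 2767 bases with Ccdc85b (3.72 TPM).

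**Figure D1:**
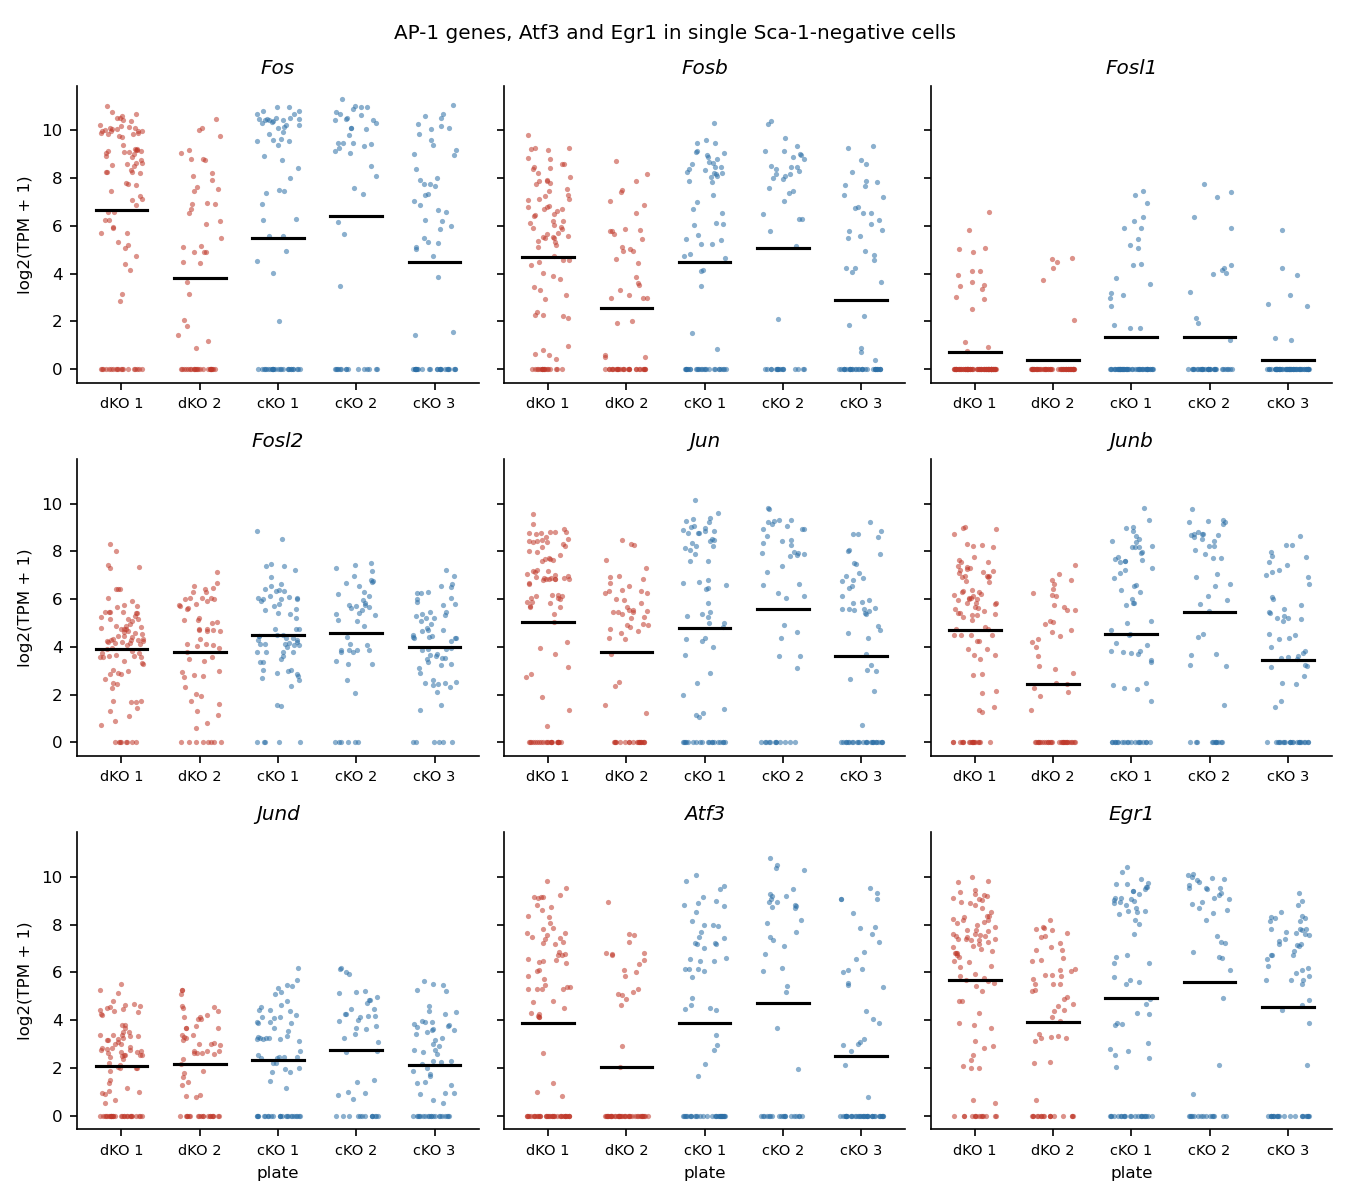
Single Sca-1-negative cells (points) of each plate, with log2(TPM + 1) of the 9 genes on the vertical axis, dKO plates in red and cKO plates in blue, and the mean of a plate as a black bar. Fos ran from 0 to a highest value of 1419 to 2517 TPM on every plate, whereas Fosl2 sat in a single band and Fosl1 was listed at 0 in 70.2% to 90.2% of cells.

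The wide members went up and down together in the same cells. The mean Spearman correlation of log2(TPM + 1) over the 36 pairs of the 9 genes, taken within plates over Sca-1-negative cells, was 0.63 and 0.39 on the dKO plates and 0.66, 0.66 and 0.58 on the cKO plates. It averaged 0.58 ± 0.11 (SD, n = 5 plates). The cells of a plate share library preparation and sequencing, and these correlations describe cells, not samples. Fos and Fosb were the closest pair, with a mean of 0.86 (0.62 to 0.93 over plates). Fosb and Egr1, whose product binds GC-rich sites and forms no AP-1 dimer, followed with 0.85 (0.74 to 0.93), Fosb and Atf3 with 0.84 (0.70 to 0.94), and Junb and Egr1 with 0.83 (0.74 to 0.95). Fos and its dimer partner Jun reached 0.79 (0.67 to 0.86).

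Jund, Fosl2 and Fosl1 followed the others less closely. Taken against the 6 wide members, a grouping made after their values were seen, the mean correlation was 0.50 for Jund, 0.44 for Fosl2 and 0.44 for Fosl1, and from 0.76 for Jun to 0.82 for Fosb among the 6 themselves. Fosl1 is at 0 in most cells, which limits any rank correlation with it. The correlation of Fosl2 with the 6 was 0.47 and 0.23 on the dKO plates and 0.64, 0.50 and 0.35 on the cKO plates. In Sca-1-positive cells it was -0.07 on plate dKO 2 and -0.13 on plate cKO 3, whereas Fos kept 0.79 and 0.86 there with the other 5. The gates differ in cell number (19 and 22 positive cells), and the difference was not tested.

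On plate dKO 2 the Sca-1-negative cells held together less: the 6 wide members had mean correlations of 0.53 to 0.62 with each other there, and of 0.74 to 0.93 on the other 4 plates. In the Sca-1-positive cells of the same plate the values were 0.60 to 0.79. Measures of RNA yield moved with the genes as well. Over all members and plates the correlation with the share of the 18S ribosomal row ran from 0.09 to 0.62, with the ERCC spike-in share from -0.59 to -0.11, with the mitochondrial share from -0.39 to 0.12 and with genes detected from -0.07 to 0.33. With genes detected regressed out the mean over pairs was 0.58, and it was 0.58 as well when ERCC and the 5 most abundant rows were removed and the rest rescaled. The 18S and ERCC shares, whose median correlations were larger (0.39 and -0.32, against 0.13 for genes detected), were not regressed out.

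**Figure D2:**
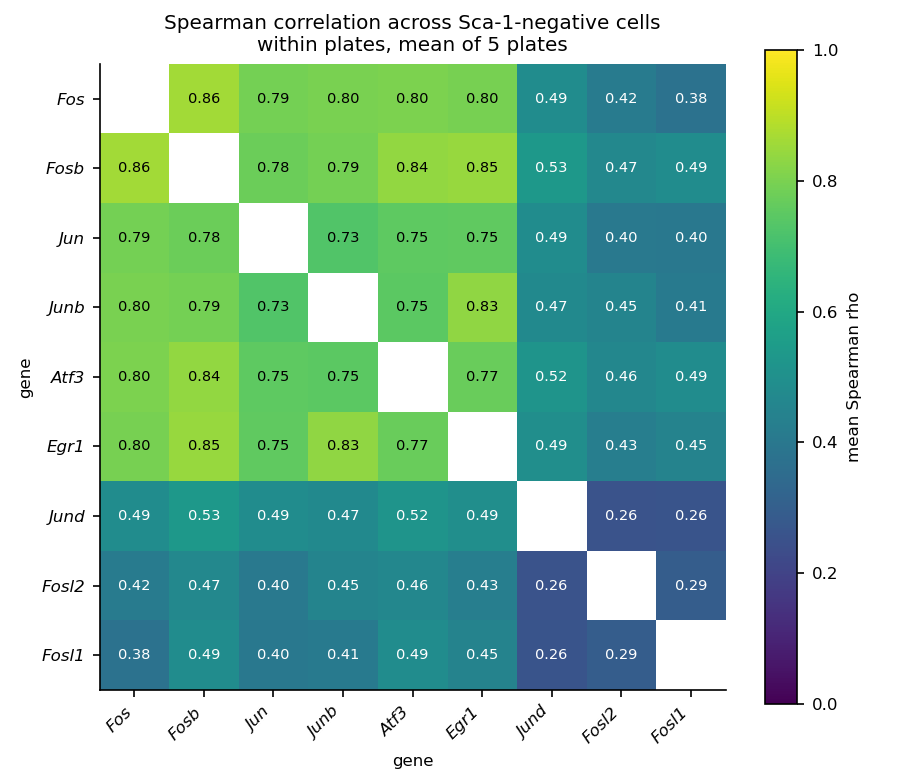
Mean within-plate Spearman correlation of log2(TPM + 1) for each pair of the 9 genes, over the Sca-1-negative cells of 5 plates, with yellow for high and purple for low values. The block of Fos, Fosb, Jun, Junb, Atf3 and Egr1 stands between 0.73 and 0.86, and pairs with Jund, Fosl2 or Fosl1 between 0.26 and 0.53.

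Counted per cell, cells with many (7 or more) or with few (2 or fewer) of the 9 genes together outnumbered those in between, least so on plate dKO 2. These outer bins together span more of the possible counts than the middle one, so an even spread would also fill them more. A gene was called positive in a cell from 10 TPM upwards. On the dKO plates 46.2% and 19.7% of Sca-1-negative cells were positive for 7 or more of the 9 genes, against 45.1%, 59.6% and 32.3% on the cKO plates. Cells with 2 or fewer made up 24.7% and 41.0% on the dKO plates, against 36.6%, 31.9% and 40.0% on the cKO plates. The middle, 3 to 6 genes, held 29.0% and 39.3% of dKO cells and 18.3%, 8.51% and 27.7% of cKO cells. Both dKO plates thus had a larger middle share than any cKO plate, but the exact 95% intervals of those nearest plates (20.1% to 39.4% for dKO 1, 17.3% to 40.2% for cKO 3) overlapped. These intervals cover counting error only.

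**Figure D3:**
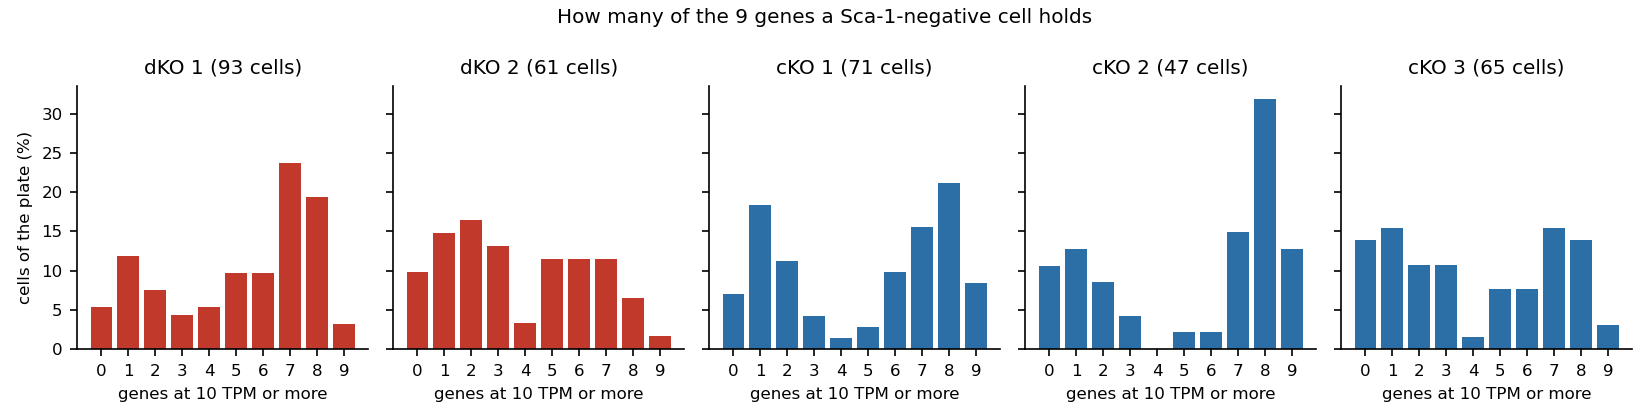
Share of the Sca-1-negative cells of each plate (vertical axis, percent) by how many of the 9 genes reach 10 TPM (horizontal axis), dKO plates in red and cKO plates in blue. On plate cKO 2, 59.6% of cells held 7 or more genes and 8.51% held 3 to 6, while on plate dKO 2 19.7% held 7 or more and 39.3% held 3 to 6.

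The genes outside the family that followed it most closely were other immediate early genes. For Fos they were Zfp36, whose product degrades AU-rich RNA (mean correlation 0.79, 0.68 to 0.87 over plates), Dusp1, a phosphatase of MAP kinases (0.78, 0.67 to 0.83), and Ier2 (0.71, 0.50 to 0.85). Nr4a1, an orphan nuclear receptor gene, led for Atf3 (0.78, 0.64 to 0.88). Ier2 led for Egr1 (0.76) and Zfp36 for Jun (0.73) and Junb (0.78). Fosl2 had no gene above 0.45 (Nr4a1, then Nfkbiz, which encodes a nuclear IκB protein, and Zfp36). The antiproliferative gene Btg2 was among the 3 closest genes of Jun (0.65) and Jund (0.43). Of the 7051 measured genes outside the family, 13 (0.184%) reached 0.5 with Fos, and the median was 0.02. The same held for 15 genes (0.213%) with each of Fosb, Jun and Atf3, and for 14 (0.199%) with Junb and with Egr1. A single gene (0.0142%) reached it with Fosl1, namely Nr4a1, and a single gene (0.0142%) with Jund, its overlapping antisense gene Gm11175 (0.63), and 0 with Fosl2.

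Of a list of 44 other immediate early genes, 32 were measured, and 9 of them were among those 13. The connection was graded: Klf6 (0.48), Nfkbia (0.48) and Myc (0.33) stood lower, and Ctgf, a YAP target that is high in bulge cells, ran the other way (-0.29, from -0.46 to -0.09 over plates). Genes of the machinery above or beside AP-1 had medians near that of all genes. These were 16 measured kinases and phosphatases of the MAP kinase pathways, 14 other leucine zipper partners and 5 genes for serum response factor cofactors and Egr corepressors. None reached 0.5, and the medians were 0.04, 0.09 and 0.03. The serum response factor gene Srf (2.70 to 3.75 TPM over plates) was not among the measured genes. The highest were Dusp5 (0.37) and Mafk, a small Maf gene (0.35), and the lowest was Creb5 (-0.32). The 9 measured AP-1 targets of keratinocytes had a median of -0.0036 with Fos (the highest was Krt16 with 0.11). Of 10 heat shock and RNA stress genes the highest was Dnajb1 (0.39).

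Between genotypes no member differed by the size rule. A gene passed it where the ratio of mean TPM + 1, plates weighted equally, was at least 1.5 in either direction and the plates of the genotypes did not overlap in mean TPM or mean log2(TPM + 1). In Sca-1-negative cells 0 of 9 members were higher in dKO (1.77% of the 7060 measured genes were), and 0 of 9 were lower (3.95% of all were). All 9 ratios lay below 1, with a median log2 ratio of -0.95 against -0.12 for all measured genes. For the wide members, however, Y and Xist plates of the same genotype differed by more than the genotypes did. Fos averaged 475 and 151 TPM on the dKO plates and 549.7, 703 and 277 TPM on the cKO plates. Plate dKO 1 lay above plate cKO 3 and plate dKO 2 below all others, so that the groups overlapped.

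The same order held for the other wide members. Junb averaged 84.0 and 22.7 TPM on the dKO plates, against 123, 209 and 52.4 TPM on the cKO plates, a log2 ratio of -1.25. Atf3 averaged 111 and 33.2 TPM on the dKO plates and 133, 279 and 73.8 TPM on the cKO plates, a log2 ratio of -1.16. Egr1 averaged 188 and 56.5 TPM on the dKO plates, against 249, 348 and 116 TPM on the cKO plates. In each of the 3, plate dKO 1 exceeded plate cKO 3. Fosb (log2 ratio -1.06), Jun (-0.77), Fos (-0.70) and Fosl1 (-1.61) overlapped in the same way, and Fosl1 averaged 3.82 and 1.68 TPM on the dKO plates and 13.2, 16.4 and 1.68 TPM on the cKO plates. Jund was apart in mean TPM alone (7.04 and 7.46 TPM in dKO, 10.2, 15.3 and 8.04 TPM in cKO) and Fosl2 in mean log2 alone (3.91 and 3.79 in dKO, 4.49, 4.60 and 3.99 in cKO).

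The count rests on which plates enter. Without plate dKO 1, 5 of 9 members were lower in dKO (Fos, Fosb, Junb, Atf3 and Egr1; 8.92% of all measured genes were), and without plate dKO 2 Jund was (10.4% of all). Without plate cKO 1 or without plate cKO 2 the count was 0 (6.11% and 5.03% of all). Without plate cKO 3, Fosl1, Fosl2 and Jund were lower (7.42% of all). Within the Xist plates the same 3 genes were lower in dKO (14.9% of all), and within the Y plates the same 5 as without dKO 1 were (10.2% of all). By kind of plate the log2 ratios were -0.40 (Xist) and -0.87 (Y) for Fos, -0.97 and -1.17 for Junb, -0.89 and -1.13 for Atf3 and -0.67 and -1.02 for Egr1. Of Fos and Egr1, mean log2(TPM + 1) pointed the other way within the Xist plates, higher in dKO by 0.70 and 0.42.

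For the 6 wide members, Y and Xist plates of 1 genotype stood further apart than the genotypes. On plate dKO 2 against plate dKO 1, 6 of 9 members were at least 2-fold lower (2.8% of all measured genes were) and 0 higher (3.73% of all), namely Fos, Fosb, Jun, Junb, Atf3 and Egr1, with log2 ratios of -1.84 (Junb) to -1.40 (Jun). On plate cKO 3 against plates cKO 1 and 2, the same 6 and Fosl1 were lower (5.28% of all), with log2 ratios of -2.56 (Fosl1) to -1.17 (Fos). Both comparisons set a Y plate against plates with Xist. Plate cKO 2 against plate cKO 1, both with Xist, had 1 member higher, Atf3 (4.77% of all), and 0 lower (4.16% of all). There the log2 ratios of the 6 ran from 0.34 (Jun) to 1.06 (Atf3), each smaller in size than the genotype ratio of that gene. The log2 ratios of Fosl2 and Jund ran from -0.74 to 0.54 in these 3 comparisons. Across genotypes within a kind of plate, at least 2-fold lower were Fosl1 on dKO 1 against cKO 1 and 2 (5.24% of all measured genes were) and Junb, Atf3 and Egr1 on dKO 2 against cKO 3 (3.41% of all). Dates, animals and handling of the plates are not in the labels, and their part was not tested.

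Other immediate early genes varied with plates in the same comparisons. Of 32 measured, 14 were at least 2-fold lower (2.8% of all measured genes were) and 3 higher (3.73% of all) on dKO 2 than on dKO 1. On cKO 3 against cKO 1 and 2, 15 were lower (5.28% of all) and none higher (1.5% of all). Nr4a1 averaged 24.9 TPM on dKO 2 against 139 TPM on dKO 1, and 66.0 TPM on cKO 3 against 277 TPM on cKO 1 and 2. Between genotypes 3 of the 32 were lower in dKO (3.95% of all measured genes were) and 0 higher (1.77% of all). The 3 were Klf6 (18.4 and 11.4 TPM in dKO, 28.5, 26.5 and 25.9 TPM in cKO), Klf4, a barrier-forming Krüppel-like factor gene (32.0 and 29.2 TPM in dKO, 51.2, 48.4 and 48.9 TPM in cKO), and Tiparp (5.998 and 9.79 TPM in dKO, 11.6, 17.7 and 10.5 TPM in cKO). Of the AP-1 targets of keratinocytes 2 of 9 were higher in dKO (1.77% of all measured genes were) and 0 lower (3.95% of all). The 2 were Krt17, a stress keratin (836 and 792 TPM in dKO, 427, 441 and 460 TPM in cKO), and the hyaluronan receptor gene Cd44 (188 and 216 TPM in dKO, 117, 133 and 132 TPM in cKO). The ratios of the 9 members all lay below 1 with none past the rule, and a link between members and these targets was not tested.

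Among genes of the pathway, Dusp5, an ERK phosphatase gene, was lower in dKO (3.84 and 1.01 TPM against 7.54, 10.8 and 4.46 TPM in cKO) and Dusp16, a JNK phosphatase gene, higher (7.86 and 8.77 TPM against 6.27, 3.28 and 4.37 TPM in cKO), the 2 of 16 measured kinases and phosphatases that passed. Of 14 measured leucine zipper partners Creb5 was higher (27.7 and 42.8 TPM in dKO, 18.8, 22.8 and 10.9 TPM in cKO) and Ddit3, which encodes the stress factor CHOP, lower (4.19 and 2.78 TPM in dKO, 7.32, 8.76 and 4.81 TPM in cKO). None of the 5 measured genes for serum response factor cofactors and Egr corepressors passed, and none of 10 heat shock genes did. Over all measured genes 3.95% were lower in dKO and 1.77% higher, and lists this short were not tested against those shares.

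By sorting gate, the 6 wide members were higher in Sca-1-positive cells on plate dKO 2, and Atf3 and Junb were on plate cKO 3. A gene passed here where mean TPM + 1 differed at least 2-fold and mean log2(TPM + 1) by at least 1 in the same direction. On plate dKO 2, 6 of 8 measured members were higher in Sca-1-positive cells (4.29% of all measured genes were) and 0 were lower (10.4% of all). Fos averaged 949 TPM in Sca-1-positive cells (0 to 1871, median 1081, 19 cells) and 151 TPM in Sca-1-negative cells (0 to 1419, median 11.6, 61 cells), 6.24-fold higher. It was listed at 0 in 1 of the 19 positive cells. Atf3 averaged 323 TPM in Sca-1-positive cells and 33.2 TPM in Sca-1-negative cells, 9.48-fold higher. Junb was 6.41-fold higher, Fosb 4.69-fold, Jun 4.08-fold and Egr1 3.84-fold. Fosl2 (36.1 TPM in Sca-1-positive cells, 29.6 TPM in Sca-1-negative cells) and Jund (14.3 and 7.46 TPM) did not reach 2-fold.

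On plate cKO 3, 2 of 8 measured members were higher in Sca-1-positive cells (3% of all were) and 0 lower (5.8% of all). Atf3 averaged 201 TPM in Sca-1-positive cells (22 cells) and 73.8 TPM in Sca-1-negative cells (65 cells), 2.70-fold higher, and Junb 109 and 52.4 TPM, 2.06-fold higher. Fos, with 554 TPM in Sca-1-positive cells and 277 TPM in Sca-1-negative cells, fell just short of 2-fold (a log2 ratio of 0.997). Fosb (1.25-fold), Jun (1.53-fold), Egr1 (1.37-fold), Fosl2 (0.882-fold) and Jund (0.921-fold) stayed under it. Positive cells made up 94.7% for Fos among Sca-1-positive dKO cells (exact 95% interval 74.0% to 99.9%) and 77.3% among Sca-1-positive cKO cells (54.6% to 92.2%). The gates of either genotype come from 1 plate, and whether the gate difference itself differs between genotypes was not tested.

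All Sca-1-positive cells lay in rows A and B of their plates, so gate and well row cannot be told apart. Against the nearest Sca-1-negative rows, C and D, the 6 members were still past the rule on plate dKO 2 (Fos 4.33-fold, 21 negative cells), whereas on plate cKO 3 none was (Atf3 1.98-fold, Junb 1.93-fold, 22 negative cells). Ly6a was positive in 89.5% and 81.8% of Sca-1-positive cells and in 26.2% and 26.2% of Sca-1-negative cells of the plates dKO 2 and cKO 3. Of the 10 bulge markers, Lhx2, Tbx1 and Cd200 were listed at 0 in every Sca-1-positive cell of both plates, whereas 4 averaged at least 1 TPM. At least 3 of the 10 were positive in 5 of 19 and 7 of 22 Sca-1-positive cells and in 53 of 61 and 53 of 65 Sca-1-negative cells. Summed bulge markers differed less, with 495 and 522 TPM in Sca-1-positive cells and 607 and 697 TPM in Sca-1-negative cells. The summed basal keratinocyte markers averaged 4809 and 4255 TPM in Sca-1-positive cells, against 1918 and 2017 TPM in Sca-1-negative cells. At least 3 basal markers were positive in 19 of 19 and 22 of 22 Sca-1-positive cells and in 59 of 61 and 61 of 65 Sca-1-negative cells. The part of these marker differences in the gate values was not tested.

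Other immediate early genes were also mostly higher in the Sca-1-positive cells of plate dKO 2. Of 30 measured, 16 passed as higher (4.29% of all measured genes did) and 3 as lower (10.4% of all). Btg2 averaged 66.2 TPM in Sca-1-positive cells and 7.19 TPM in Sca-1-negative cells, Zfp36 312 and 42.7 TPM, Dusp1 947 and 163 TPM, and Csrnp1 17.3 and 2.44 TPM. Egr2, the closest relative of Egr1 in the list, ran the other way (17.9 TPM in Sca-1-positive cells, 112 TPM in Sca-1-negative cells), as did Ier3 (4.44 and 13.9 TPM) and Ctgf, which was listed at 0 in Sca-1-positive cells and averaged 61.7 TPM in Sca-1-negative cells. On plate cKO 3, 3 of 31 were higher (Csrnp1, Nfkbia and Zfp36; 3% of all measured genes were) and 1, Ctgf, was lower (5.8% of all). The AP-1 target Krt17 was lower in Sca-1-positive cells of both plates (184 against 792 TPM on dKO 2, and 184 against 460 TPM on cKO 3). It was 1 of 2 lower among 9 measured AP-1 targets on dKO 2 (10.4% of all) and among 13 on cKO 3 (5.8% of all), with 0 higher. The median log2 ratio of these targets was -0.29 on dKO 2 (-0.30 for all measured genes) and 0.32 on cKO 3 (-0.15 for all).

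**Figure D4:**
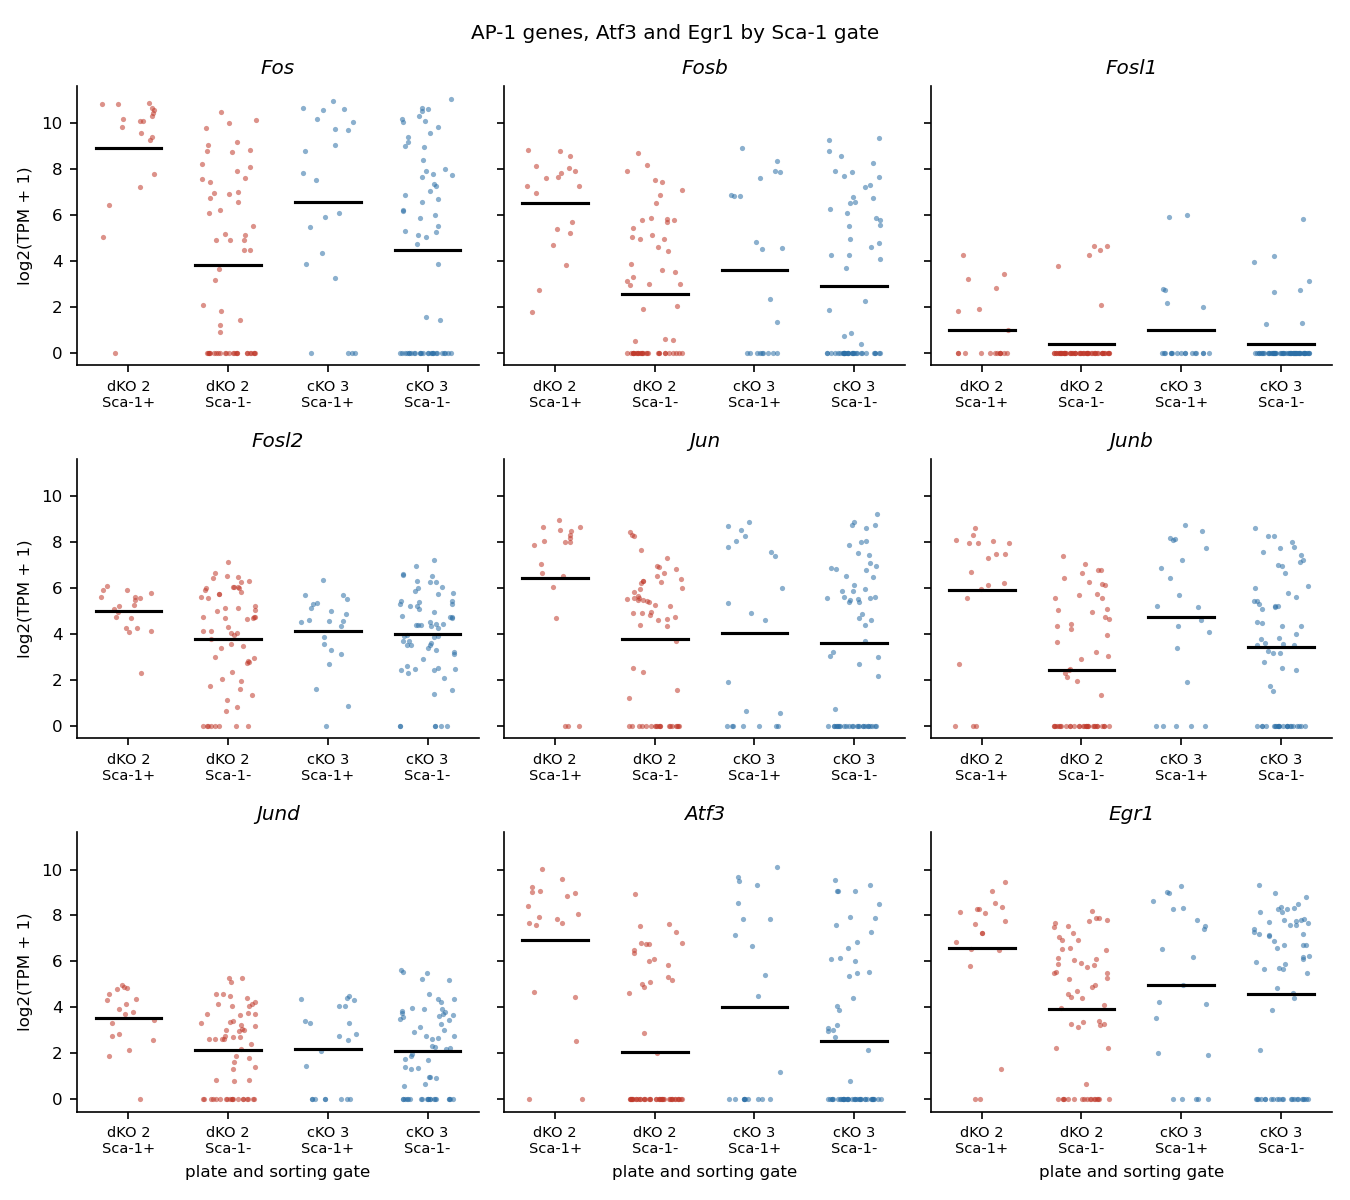
Single cells (points) of the Sca-1-positive and Sca-1-negative gates of plates dKO 2 (red) and cKO 3 (blue), with log2(TPM + 1) on the vertical axis and the mean of a gate as a black bar. Fos, Fosb, Jun, Junb, Atf3 and Egr1 sit higher in the Sca-1-positive cells of dKO 2, by 3.84-fold to 9.48-fold in mean TPM, than in its Sca-1-negative cells, and the gates of cKO 3 overlap more.

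Within the Sca-1-negative gate, the wide members were lower in Cd34-positive than in Cd34-negative cells on every cKO plate, by over 2 on the log2 scale, and were less so on both dKO plates. Cd34, the surface marker of bulge stem cells, reached 10 TPM in 23 of 93 and 16 of 61 cells on the dKO plates and in 23 of 71, 13 of 47 and 16 of 65 cells on the cKO plates. The split was chosen after values were seen and is given as a description. Fos was positive in 69.6% (exact 95% interval 47.1% to 86.8%) and 50% (24.7% to 75.3%) of Cd34-positive dKO cells, and in 34.8% (16.4% to 57.3%), 23.1% (5.04% to 53.8%) and 0% of Cd34-positive cKO cells. On plate cKO 3 it was listed at 0 in all 16 (exact 95% interval 0% to 20.6%). In Cd34-negative cells Fos was positive in 80% and 51.1% of dKO cells and 72.9%, 85.3% and 75.5% of cKO cells, shares that overlap between genotypes.

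As a difference in mean log2(TPM + 1), Cd34-positive minus Cd34-negative, Fos stood at -0.59 and -0.51 on the dKO plates and at -4.13, -6.47 and -5.93 on the cKO plates. Egr1 stood at -0.85 and -0.98 on the dKO plates and at -4.54, -6.14 and -5.42 on the cKO plates. For both genes the dKO plates thus lay within 1 of 0 and the cKO plates at least 4 below it, with no overlap. Within the Xist plates the Fos difference was -0.59 in dKO and -4.13 and -6.47 in cKO, and within the Y plates -0.51 in dKO and -5.93 in cKO. The mean Fos level in Cd34-positive cells was 484 and 67.5 TPM on the dKO plates, against 197, 70.4 and 0 TPM on the cKO plates, so that plate dKO 2 overlapped with cKO in mean TPM. In mean log2(TPM + 1) the genotypes did not overlap, with 6.22 and 3.43 on the dKO plates and 2.71, 1.73 and 0 on the cKO plates. The Cd34-negative cells of plate dKO 2 were low as well (181 TPM, against 368 to 945 TPM on the cKO plates).

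The other wide members showed the same order of plates. Fosb stood at -0.24 and -0.43 on the dKO plates and from -5.30 to -3.78 on the cKO plates, and Jun at -1.56 and 0.37 on the dKO plates and from -4.97 to -3.42 on the cKO plates. Junb stood at -0.58 and -1.45 on the dKO plates and from -5.35 to -3.61 on the cKO plates, and Atf3 at -0.47 and -0.59 on the dKO plates and from -4.97 to -2.62 on the cKO plates. These 6 genes had every dKO plate above every cKO plate and means at least 1 apart, as 6.32% of 7059 measured genes did. Fosl2 (-0.84 and -1.69 in dKO, -2.03, -2.90 and -1.69 in cKO), Fosl1 and Jund (mean differences of 0.90 and 0.83 between genotypes) did not. On all 3 cKO plates 7 of 9 members were lower by at least 1 in Cd34-positive cells (4.97% of all were), and on both dKO plates 0 of 9 (3.41% of all). Both rules used mean log2(TPM + 1) alone, without mean TPM. In mean TPM on plate dKO 2, Fos (67.5 against 181 TPM), Junb (6.85 against 28.4 TPM), Atf3 and Egr1 were lower in Cd34-positive cells. Fosb (54.5 against 29.5 TPM) and Jun (55.5 against 50.1 TPM) were higher in them.

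Further values moved with this split. Of the 8 measured bulge markers other than Cd34, 3 (Lgr5, Lhx2 and Tbx1) separated the Cd34 classes less in dKO than in cKO (2.42% of all genes did). Cd34 itself had a median of 74.0 and 179.9 TPM in the Cd34-positive cells of the dKO plates and of 290.4, 262 and 137 TPM in those of the cKO plates. Median genes per cell were 4929 and 5348.5 in Cd34-positive dKO cells and 4610.5 to 4734 in Cd34-positive cKO cells, against 5350 and 5138 in Cd34-negative dKO cells and 4991 to 5097 in Cd34-negative cKO cells. The ERCC share was 4.18% and 4.01% in Cd34-positive dKO cells and 4.49% to 6.62% in Cd34-positive cKO cells, against 3.25% and 3.65% in Cd34-negative dKO cells and 3.47% to 4.36% in Cd34-negative cKO cells. The share of the 18S row was 61.9% and 55.7% in Cd34-positive dKO cells and 52.7%, 53.1% and 53.9% in Cd34-positive cKO cells, against 61.4% and 56.2% in Cd34-negative dKO cells and 58.0%, 58.2% and 55.8% in Cd34-negative cKO cells. It was thus lower in Cd34-positive cells on every cKO plate, by more than on either dKO plate. Their part in the difference was not tested. With Cd34-positive cells taken from 50 TPM 6 members passed the rule, and without any 1 plate 6 to 8 did.

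Other immediate early genes showed it too. Of 32 measured, 11 had dKO above cKO by the same rule (6.32% of all measured genes did) and 0 below (2.42% of all). Most of the 11 followed Fos from cell to cell (mean correlation from 0.15 for Ier3 to 0.79 for Zfp36), so they are not a separate observation. Nr4a1 stood at 0.30 and 0.67 on the dKO plates and from -4.89 to -2.57 on the cKO plates, and Dusp1 at -1.88 and -1.44 on the dKO plates and from -5.69 to -4.25 on the cKO plates. Egr2 was lower in Cd34-positive cells of every plate (-3.31 and -2.42 in dKO, -6.23 to -6.17 in cKO), and Ctgf was higher in them on every plate (2.94 and 4.06 in dKO, 2.59 to 5.32 in cKO). Across cells, as another view of the same split, the correlation of Fos with Cd34 was -0.10 and -0.22 on the dKO plates and -0.41, -0.50 and -0.56 on the cKO plates. With Tbx1, a transcription factor gene of quiescent bulge cells, it was -0.15 and -0.31 on the dKO plates and -0.41, -0.55 and -0.64 on the cKO plates, and with Lhx2, another, -0.14 and -0.42 on the dKO plates and -0.42, -0.49 and -0.63 on the cKO plates. Plate dKO 2 matched plate cKO 1 for Lhx2 to 2 decimals. Of the 9 measured bulge markers, 5 (Cd34, Lgr5, Krt15, Lhx2 and Tbx1) were below both dKO plates on every cKO plate, as 10% of 7051 genes were, and 4 were not. Of these, Nfatc1 had -0.19 and -0.45 on the dKO plates and -0.37, -0.32 and -0.13 on the cKO plates, and Itga6 averaged 0.17.

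**Figure D5:**
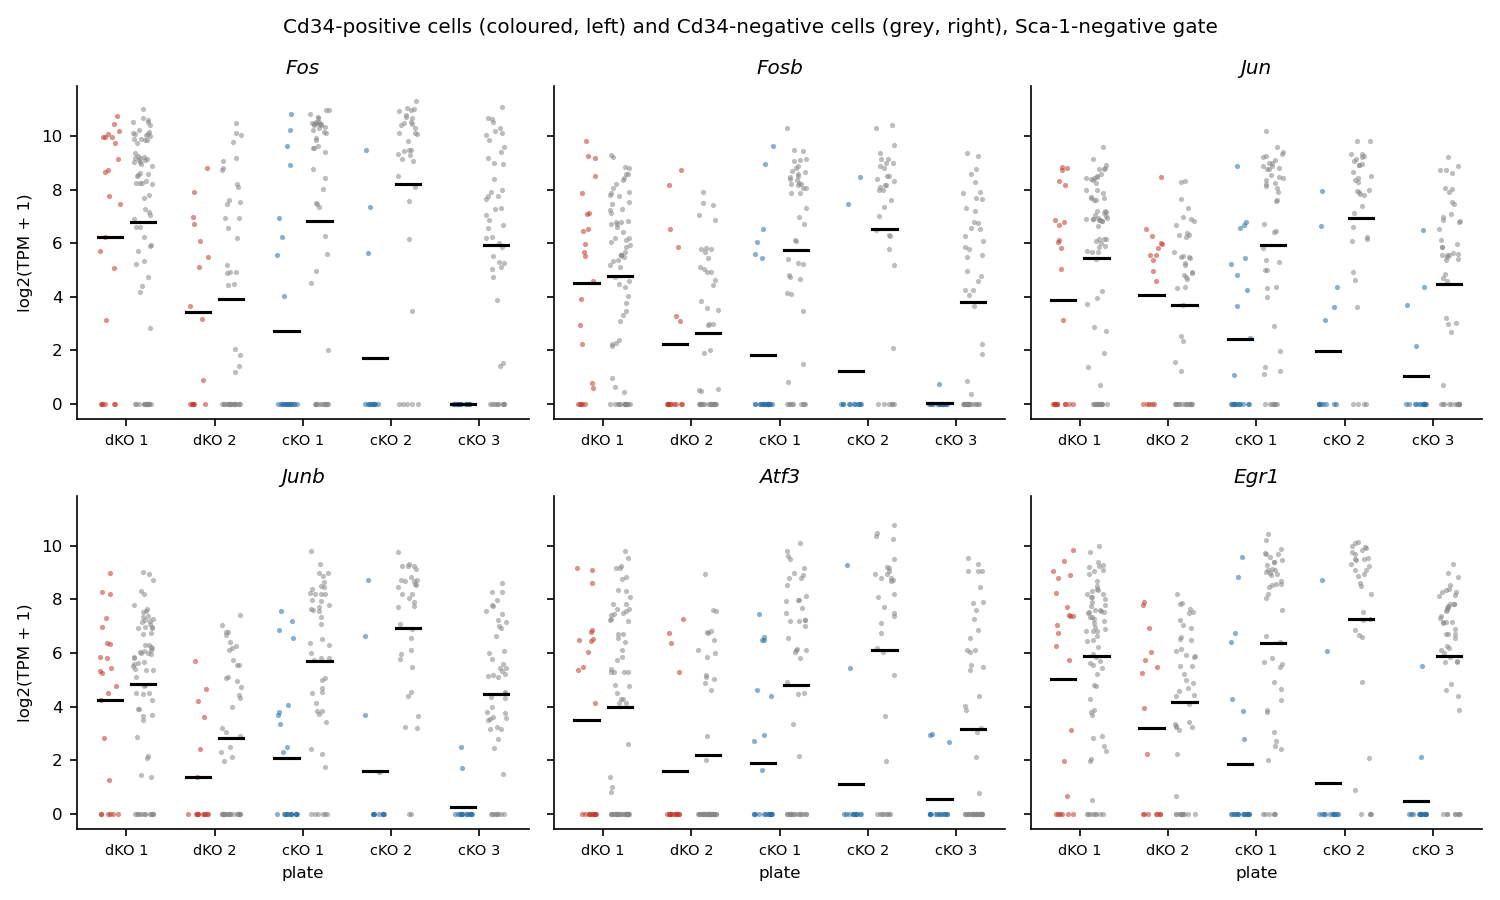
Single Sca-1-negative cells of each plate, Cd34-positive cells (10 TPM or more; red for dKO, blue for cKO) to the left of Cd34-negative cells (grey), with log2(TPM + 1) on the vertical axis and means as black bars. On this log2 scale, Fos in Cd34-positive cells lies near its Cd34-negative mean on the dKO plates (differences of -0.59 and -0.51). It lies 4.13 to 6.47 below that mean on the cKO plates. Mean TPM of Fos in Cd34-positive and Cd34-negative cells was 484 and 472 on plate dKO 1 and 67.5 and 181 on plate dKO 2.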

How the data were processed

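Per the labels' protocols, single cells were sorted into 96-well plates and made into libraries by Smart-seq2 and Nextera XT for paired-end sequencing. The submitters' processing notes name RSEM 1.2.30, Bowtie2 2.2.9 and the build mm10 (GRCm38), and no annotation. The authors deposited TPM, in which each cell sums to the same total, so read depth is unknown and genes detected stand in for it. The row Rn18s-rs5 alone took 57.8% of TPM on average, which lowers all other values. RSEM divides ambiguous reads by a model, and amplification copies are counted.

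Cells with at least 1000 genes at 1 TPM were kept, and logs used a pseudocount of 1 TPM, which understates ratios of low genes. Ratios, size rules and Spearman correlations were computed over all measured genes with Python 3.11.15, pandas 2.3.3, numpy 2.4.6 and scipy 1.17.1, and tested on simulated plates. Shares carry exact (Clopper-Pearson) 95% intervals, which cover counting error only. The number in each title was taken for its plate, and with no animals named no test was run. Gene positions follow GENCODE M21 (46005 of 46517 IDs found), and promoters RefSeq.

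The members, lists and rules were chosen with earlier results of these data known. Named outside the family were, per member, the 3 genes of highest correlation and, per list, up to 4 past the rule in each direction or the 2 most abundant. Other genes named (for their correlation with Fos, in the Cd34 classes or as markers at 0), the grouping of 6 wide members and the Cd34 split were chosen after their values were seen. Alternatives were other pseudocounts, cell and gene filters, ratios, scalings, positive thresholds, Pearson correlation, trimmed cells, rows C and D, and plates left out.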

Additional observations from a re-analysis of the deposited data

Results flagged for a closer look

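Fosl1 was marked because the sign of its difference between genotypes changed with the kind of plate, although the second value is close to 0. It was lower in dKO within the Xist plates (3.82 TPM on dKO 1, against 13.2 and 16.4 TPM on cKO 1 and cKO 2) and about level within the Y plates (1.68 TPM on dKO 2 and 1.68 TPM on cKO 3, a log2 ratio of 0.00347). Fosl2 had the same signs in mean TPM (log2 ratios of -0.64 within the Xist plates and 0.03 within the Y plates), but not in mean log2(TPM + 1). Fosl1 is listed at 0 in most cells, and neither difference was tested.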

How the results depend on the processing

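No paired analysis was possible because no test was run; gates were compared within plates and genotypes within kinds of plate, as values only. No member past the gate rule changed direction under the alternatives run, and between genotypes no member was past the rule with all plates. The count of members lower in dKO, 0 with all plates, ran from 0 to 5 when each plate was left out, and was 3 within the Xist plates and 5 within the Y plates; the count higher in dKO was 0 in each. The count of members higher in Sca-1-positive cells of plate cKO 3, 2 as reported, was 1 with a pseudocount of 10 TPM, 1 with no filter on cells, 0 at a ratio of 3 and 0 against rows C and D. The mean correlation between members lay between 0.56 and 0.63 under the alternatives, and the 6 members with a higher Cd34 difference in dKO became 6 to 8; the thresholds for Cd34 were chosen after seeing the data. Of the alternatives for single genes, 403 moved by less than the spread over plates and 20 did not. TPM keeps no read depth, so a gene listed at 0 cannot be told from a gene below detection.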

Other observations

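The 6 cells left out for having fewer than 1000 genes still held the family: Fos and Egr1 reached 10 TPM in 3 of them, Fosb, Jun and Junb in 2 and Fosl2 in 1, with up to 1709 TPM of Jun. Jund, Fosl1 and Atf3 were listed at 0 in all 6.

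Among the marker classes of Sca-1-negative cells, the level of Fos averaged 384 TPM in cycling cells (25 cells on 3 plates), 395 TPM in Cd34-negative cells positive for Krt79, a keratin of the upper follicle (63 cells on 5 plates), 164 TPM in Cd34-positive cells (91 cells) and 572 TPM in the 183 cells with neither Cd34 nor Krt79, which can include cycling cells. Egr1 averaged 163 TPM in cycling cells, 217 TPM in cells with Krt79, 69.3 TPM in Cd34-positive cells and 248 TPM in the rest. The cycling means cover plates dKO 1, dKO 2 and cKO 1 alone and are not like for like with means of 5 plates. On those plates Fos averaged 506, 161 and 486 TPM in cycling cells and 313, 145 and 381 TPM in cells with Krt79. Egr1 averaged 162, 65.1 and 263 TPM in cycling cells there, and 158, 65.0 and 189 TPM in cells with Krt79. Well rows of 1 plate also differed: mean log2(TPM + 1) of Fos ran from 3.88 to 8.98 over the 8 rows of plate dKO 1 and from 2.36 to 7.27 over the 7 rows of plate cKO 1 with at least 5 cells.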
